A study of Mus musculus with 30 samples.

Results

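Notch receptors, ligands and targets are described here by the 10 genes Notch1, Notch2, Notch3, Notch4, Jag1, Jag2, Dll1, Hes1, Hey1 and Nrarp, taken by their symbols from 55487 genes listed for each of 30 RNA-seq libraries. Each symbol was listed once, and all 10 genes passed the filter on low counts in every comparison. The libraries came from lung organoid cultures of 4 adult wild type C57BL/6J mice, from a colony of males and females with no sex given per sample. Each culture held 300000 freshly isolated lung cells positive for Epcam, an epithelial surface protein, and as many fibroblasts of the mouse lung line CCL206, whose proliferation had been stopped. After 72 hours the cells were separated with Epcam beads into an epithelial and a fibroblast fraction and each fraction was sequenced in bulk. All fibroblast libraries therefore stand for 1 cell line, and their replicates differ in the mouse that gave the epithelial cells.

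The cultures were exposed to vehicle, to the exacerbation cocktail (EC), to the IPF cocktail (IPFc) or to TGF-β at 2 ng/ml. EC held 4 factors, IL-1β, IL-6, IL-8 and TNFα, with the mouse chemokine KC in the place of IL-8. IPFc held 9 factors, TGF-β itself, TNFα, TSLP, the interleukins IL-33, IL-13, IL-8, IL-4 and IL-1β, and the chemokine CCL2. The culture medium also held the ROCK inhibitor Y-27632 in the vehicle and EC cultures the study's methods describe. There were 4 libraries in each group except for the epithelial TGF-β group, which had 3 (mice 2, 3 and 4), and the fibroblast vehicle group, which had 3 (mice 1, 3 and 4). The EC, IPFc and TGF-β groups of a fraction share their vehicle libraries.

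Notch receptors are single-pass membrane proteins that are cut after they bind a ligand of the Jagged or Delta-like family on a neighbouring cell. The released intracellular part enters the nucleus, joins the DNA-binding protein RBPJ and a Mastermind protein, and activates genes such as Hes1, Hey1 and Nrarp. In the airways the pathway is known for its part in the choice between secretory and ciliated cells, and in the mesenchyme Notch3 is known from mural cells.

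Levels are CPM, the reads of a gene scaled to a common library size (with TMM factors), and a spread is the SD over libraries. Fold changes, SEs and adjusted p-values come from the quasi-likelihood test of edgeR, fitted over all genes of a fraction with the mouse as a block, with Benjamini-Hochberg adjustment over all genes tested. A gene was called at an adjusted p under 0.05. The libraries held 5113828 to 20317181 counted reads. The shallowest was fibroblast EC of mouse 1, which had the lowest CPM of Notch1, Notch2, Notch3, Jag1, Jag2 and Nrarp in its group. Epithelial EC of mouse 4 was the lowest library of its group for Notch1 (16.8 CPM), Notch2 (86.0) and Jag1 (28.8). Values without them are given below for the members whose call changed.

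The separation of the fractions was not complete. The share of RNA of the other fraction was estimated for each library as the median ratio to its partner culture over marker genes of the other cell type. Fibroblast libraries held an estimated 18.7% ± 6.34 of epithelial RNA in vehicle (n = 3), 45.9% ± 8.55 in EC, 18.9% ± 8.05 in IPFc and 2.24% ± 1.28 in TGF-β (n = 4 each). Epithelial libraries held an estimated 5.89% ± 2.47 of fibroblast RNA in vehicle, 10.7% ± 4.16 in EC, 10.5% ± 4.55 in IPFc (n = 4 each) and 25.2% ± 2.74 in TGF-β (n = 3). These shares move with the treatments, and the estimate takes every read of the marker genes as RNA of the other cells. The markers did not share a common ratio. In fibroblast and epithelial EC libraries Epcam stood at 68.3 to 113 and 238 to 334 CPM, and Sftpc at 1650 to 2960 and 1280 to 3260. In vehicle Epcam stood at 25.4 to 45.4 and 216 to 233 CPM, and Ager at 164 to 200 and 211 to 250. A single share may therefore be too high or too low for a given member. The share times the partner's level is given below for members whose measured level it reaches or approaches. Of the 11 fibroblast markers, Thy1 was listed with no reads in fibroblast vehicle, EC and TGF-β libraries. Endothelial markers summed to between 1.39 and 12.4 CPM in all groups and immune markers to between 0.411 and 5.2 CPM. In these bulk samples, fewer cells of a type and less RNA per cell cannot be told apart.

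In vehicle cultures the epithelial fraction had the higher levels of the 3 ligands, of Notch1 and of the targets Hes1 and Nrarp, and the fibroblast fraction had the higher level of Notch3. Per exon length, the epithelial order was Hes1 with 43.7 CPM per kb ± 13, Notch2 with 13.5 ± 0.957, Jag1 with 7.78 ± 1.05, Nrarp with 6.26 ± 0.676, Notch1 with 4.08 ± 0.367, Jag2 with 3.47 ± 2.08, Notch3 with 2.29 ± 0.702, Dll1 with 0.988 ± 0.386, Hey1 with 0.475 ± 0.319 and Notch4 with 0.0205 ± 0.0136 (n = 4). In fibroblast vehicle libraries Hes1 had 19.7 CPM per kb ± 14.8, Notch3 16.5 ± 3.52 and Notch2 12.0 ± 4.68 (n = 3), and these 3 genes overlapped in range. The other members lay between 0.0781 CPM per kb for Notch4 and 2.69 for Jag1. Tested within cultures, 7 of 10 members differed between the fractions at an adjusted p under 0.05, against 47.1% of all 18364 genes tested. Notch1, Jag1, Jag2, Dll1, Hes1 and Nrarp were higher in epithelial libraries and Notch3 was higher in fibroblast libraries.

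**Figure D1:**
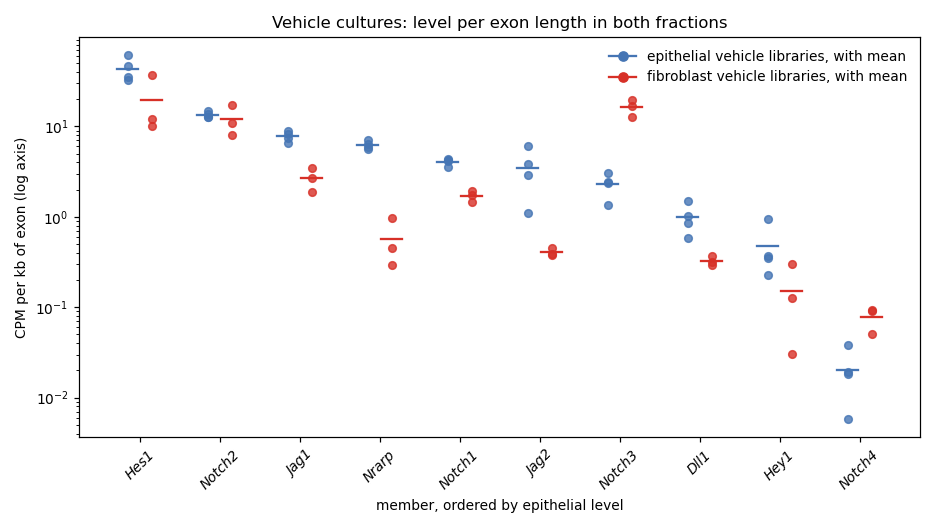
Level of each member in vehicle libraries of both fractions, in CPM per kb of exon on a log axis, with a point for each library and a line at the mean. Notch3 stands above its epithelial level in all 3 fibroblast libraries, and Nrarp and Jag2 stand below theirs.

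The difference was 3.55 ± 0.52 (log2, SE) for Nrarp (adjusted p = 2.44e-05), 2.51 ± 0.67 for Jag2 (0.00497), 1.5 ± 0.27 for Jag1 (0.000191), 1.45 ± 0.28 for Hes1 (0.000383), 1.3 ± 0.36 for Dll1 (0.00665) and 1.25 ± 0.37 for Notch1 (0.0106). Notch3 was 7.51-fold lower in epithelial libraries, a log2 difference of -2.91 ± 0.45 (adjusted p = 4.83e-05). Each of these 7 differences had its direction in 3 of 3 cultures. For Notch2 the difference of 0.28 did not pass the test, with a 95% interval of -0.37 to 0.92. Neither Notch4 (-1.94 ± 0.97, adjusted p = 0.111) nor Hey1 (1.3 ± 0.79, adjusted p = 0.189), both with few reads, passed. Without mouse 3 the calls for Notch1 (1.03, adjusted p = 0.145), Jag2 (2.04, 0.102) and Dll1 (1, 0.152) were lost. After subtraction of the other fraction's share Hes1 and Nrarp of the 7 were called, beside 4061 of 18247 genes. The values of the other 5 after subtraction were at least as far from 0, with larger SEs, at 1.84 ± 0.91 for Notch1 (adjusted p = 0.162), -4.04 ± 1.47 for Notch3 (0.0659), 2.33 ± 0.81 for Jag1 (0.0548), 6.22 ± 2.23 for Jag2 (0.0721) and 1.93 ± 0.78 for Dll1 (0.0931).

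The members were looked up in the promoter windows of RefSeq (GRCm38.p6), which held 8 of the 10 members. Hes1 and Hey1 are not in that table. The bases from 250 to 51 before the annotated start are shown for Notch1 and Nrarp, a receptor and a target that were called as lower under TGF-β in both fractions, and for Notch3, a receptor called as higher under TGF-β in epithelial libraries. Of these calls, only that of Notch1 in epithelial libraries remained after subtraction of the other fraction's share (values below). Fibroblast Nrarp was not tested after it. Each window was located by an exact match in GRCm39. Capitals mark CAGAC or its reverse complement GTCTG, the core of the box that SMAD proteins bind, which was chosen with the results known. The Nrarp and Notch3 windows lie upstream of the annotated gene, and the Notch1 window lies inside the gene as GENCODE annotates it, in no exon.
Notch1, chr2:26393885-26394084, minus strand: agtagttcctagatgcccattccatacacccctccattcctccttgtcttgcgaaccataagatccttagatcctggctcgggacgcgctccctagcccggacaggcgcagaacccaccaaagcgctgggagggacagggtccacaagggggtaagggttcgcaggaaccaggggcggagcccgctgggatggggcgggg
Nrarp, chr2:25070520-25070719, plus strand: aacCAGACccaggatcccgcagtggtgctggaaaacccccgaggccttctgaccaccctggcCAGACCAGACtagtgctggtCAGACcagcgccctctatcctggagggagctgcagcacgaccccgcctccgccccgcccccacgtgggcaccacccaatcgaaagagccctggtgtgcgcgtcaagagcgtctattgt
Notch3, chr17:32385915-32386114, minus strand: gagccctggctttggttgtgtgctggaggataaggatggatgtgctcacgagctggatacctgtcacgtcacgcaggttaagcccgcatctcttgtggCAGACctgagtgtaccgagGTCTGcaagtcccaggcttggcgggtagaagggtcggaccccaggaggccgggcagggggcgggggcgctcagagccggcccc

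The Nrarp window held 4 matches of this motif, the Notch3 window 2 and the Notch1 window 0. Over both strands, 35.8% of the 32851 RefSeq windows of 200 bases held at least 1, and 5 of the 9 windows of the members did (Dll1 has 2 windows). The letters GTGGGAA or TTCCCAC, which RBPJ binds, were in 4.35% of all windows and in 0 of the 9. The matches describe the letters in these windows and no binding.

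Notch1 (ENSMUSG00000026923, chr2:26347915-26406675 in GRCm39, minus strand) is the receptor best known from epithelial and blood lineages. In epithelial vehicle libraries it stood at 60.8, 59.5, 61.5 and 50.3 CPM in mice 1 to 4. In EC it stood at 39.8, 45.3, 37.7 and 16.8 CPM in the same mice. In IPFc the values were 47.0, 45.0, 30.3 and 40.3 CPM. Under TGF-β they were 25.0, 21.8 and 26.0 CPM in mice 2, 3 and 4. The vehicle libraries overlapped with none of the other epithelial groups, and every pair of a treated and a vehicle library of one mouse was lower under treatment. In fibroblast libraries Notch1 stood at 25.0, 20.7 and 27.4 CPM in vehicle, at 5.33, 25.3, 24.1 and 25.0 in EC, at 21.2, 20.9, 22.5 and 18.3 in IPFc, and at 10, 14.1, 10 and 7.16 under TGF-β. The fibroblast TGF-β libraries lay below all vehicle and IPFc libraries, and the EC library of mouse 1 lay below all of them.

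Notch1 fell in epithelial libraries under EC by 0.76 on the log2 scale (SE 0.17, adjusted p = 0.0123), a 1.69-fold difference, and was the 1 member called of 10, against 4.41% of 18024 genes. Without epithelial EC of mouse 4 Notch1 was still called, and without mouse 1 the adjusted p was 0.0525. After subtraction of the fibroblast share the value was -0.74 (adjusted p = 0.166). Under TGF-β Notch1 fell 2.24-fold in epithelial libraries (log2 -1.16 ± 0.20, adjusted p = 7.56e-05) and 2.44-fold in fibroblast libraries (-1.29 ± 0.31, adjusted p = 0.00649). The epithelial TGF-β difference kept its call in all 13 alternatives it was recomputed under, between -1.35 and -0.90. The epithelial share times the epithelial Notch1 level was 9.19 to 13.1 CPM in fibroblast vehicle libraries and 0.222 to 0.977 under TGF-β. In fibroblast EC libraries it was 18.6, 19, 14.2 and 9.65 CPM in mice 1 to 4, and in mouse 1 it exceeded the measured 5.33 CPM. The fibroblast TGF-β difference lost its call without mouse 4 (-1.10, adjusted p = 0.097) and after subtraction (-0.77, adjusted p = 0.942). The difference between the fractions in the Notch1 response to TGF-β was 0.02 with a 95% interval of -1.07 to 1.10. Under IPFc the epithelial Notch1 value was -0.54 ± 0.17 (adjusted p = 0.0995). It passed without epithelial EC of mouse 4 in the model (-0.54, adjusted p = 0.00205), without mouse 4 (-0.6, 0.00477), with only the groups compared (-0.55, 0.00114) and with no filter on low counts (-0.53, 0.00028), and in none of the other 9 alternatives, where the adjusted p was 0.0789 to 0.657.

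Notch2 (ENSMUSG00000027878, chr3:97920800-98057677, plus strand) is a broadly expressed receptor. Its group means ran from 135 CPM ± 52.6 in fibroblast vehicle (n = 3) to 167 ± 18.3 in fibroblast TGF-β (n = 4), and no 2 neighbouring groups in the order of the 8 means were apart. In the edgeR models described above it passed the test in none of the comparisons with vehicle, and in none of them was its unadjusted p under 0.05. The epithelial 95% intervals were -0.42 to 0.19 for EC, -0.38 to 0.23 for IPFc and -0.20 to 0.46 for TGF-β. In fibroblast libraries the TGF-β value was 0.44 ± 0.23 (adjusted p = 0.226), and without the EC library of mouse 1 in the model it was 0.49 ± 0.13 (adjusted p = 0.00644). This value also passed with no filter on low counts (0.46, adjusted p = 0.0277) and with only the groups compared (0.49, adjusted p = 0.016). In fibroblast EC libraries of mice 1 to 4 Notch2 stood at 52.5, 147, 172 and 179 CPM. The epithelial share times the epithelial Notch2 level was 72.8, 66.9, 59.7 and 49.5 CPM there.

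Notch3 (ENSMUSG00000038146, chr17:32339794-32385893, minus strand) is the receptor of mural and other mesenchymal cells. Epithelial libraries of mice 1 to 4 held 27.5, 21.8, 21.2 and 12.2 CPM in vehicle and 25.7, 31.6, 16.0 and 14 in EC. In IPFc they held 49.3, 48.9, 13.4 and 22.2 CPM, so that mice 1 and 2 stood above all vehicle libraries and mouse 3 below its own. The IPFc value was 0.59 ± 0.21 (adjusted p = 0.158), and without mouse 3 it was 0.94 (adjusted p = 0.00325). In these IPFc libraries the fibroblast share was 13.3, 14.7, 4.51 and 9.53% in mice 1 to 4. This share times the partner's Notch3 level came to 28.8, 28, 11.3 and 15 CPM. Under TGF-β the epithelial libraries held 52.1, 51.4 and 43.9 CPM of Notch3 in mice 2, 3 and 4, all above every vehicle library. Notch3 rose 2.82-fold there (log2 1.5 ± 0.23, adjusted p = 1.88e-05). Beside it, fibroblast markers in epithelial libraries summed to 10100 to 11900 CPM under TGF-β and to 711 to 1300 in vehicle, and mural markers to 117 to 143 CPM and to 12.9 to 19.2. Of the 6 mural markers 3 exceeded 1 CPM under TGF-β (Cspg4, Mcam and Rgs5). Kcnj8 and Abcc9 had no reads there and Myh11 reached at most 0.383 CPM. In fibroblast TGF-β libraries Cspg4 stood at 289 to 355 CPM, Mcam at 29.1 to 42.4 and Rgs5 at 0 to 0.134. The fibroblast share times the partner's Notch3 level came to 39.6 to 52.0 CPM under TGF-β, close to the 43.9 to 52.1 measured, and 2 of 3 libraries were at or below it. After subtraction the Notch3 value was -1.74 ± 0.89 (adjusted p = 0.169). In vehicle the product was 6.11 to 11 CPM, below the measured level in 4 of 4 libraries.

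In the fibroblast libraries, where Notch3 was high, it stood at 115, 153 and 178 CPM in vehicle, at 46.4, 147, 170 and 108 in EC, at 216, 191, 250 and 158 in IPFc, and at 160, 168, 219 and 170 under TGF-β. All groups overlapped with vehicle, and the EC library of mouse 1 was the lowest of the 15. None of the 3 Notch3 responses passed the test, with -0.43 ± 0.25 for EC (adjusted p = 0.329), 0.44 ± 0.25 for IPFc (adjusted p = 0.907) and 0.30 ± 0.25 for TGF-β (adjusted p = 0.472). The difference between the fractions in the response to TGF-β was 1.01 with an interval of -0.26 to 2.27 (adjusted p = 0.316).

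Notch4 (ENSMUSG00000015468, chr17:34783220-34807477, plus strand) is mostly known from endothelial cells, which had been depleted before culture. It had between 0 and 5 reads in each epithelial vehicle, EC and IPFc library. In epithelial EC of mouse 1 it had 0 reads, which allows up to 0.213 CPM (3 counts, counting error only). Epithelial TGF-β libraries held 0.733, 1.07 and 0.563 CPM, 34 reads in all, against 0.342, 0.162, 0.0514 and 0.169 CPM in vehicle, 10 reads in all. The ratio of the summed reads was 4.67, with a 95% counting interval of 2.26 to 10.6, and the groups did not overlap. The fitted value was 2.36 ± 0.89 (adjusted p = 0.0386), but it lost its call without mouse 2 (2.49, 0.123), without mouse 3 (1.47, 0.344) and without mouse 4 (2.62, 0.0633). The call was also lost with no filter on low counts, with the suffix of the sample titles as a term and after subtraction. The fibroblast share times the fibroblast Notch4 level was 0.118 to 0.396 CPM in the epithelial TGF-β libraries. In epithelial EC of mouse 1, with 0 reads of Notch4, it was 0.326 CPM. Of the 8 endothelial markers 3 exceeded 1 CPM in the TGF-β libraries, with sums of 3.71 to 5.51 CPM against 4.68 to 5.33 in vehicle, and Emcn had no reads. Within these sums Kdr stood at 0.635 to 2.37 CPM against 0.0514 to 0.566 in vehicle, and Vwf at 0.919 to 2.03 against 1.57 to 3.98. Fibroblast libraries held 0.144 to 2.17 CPM of Notch4 in all 15, with overlapping groups and no call.

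**Figure D2:**
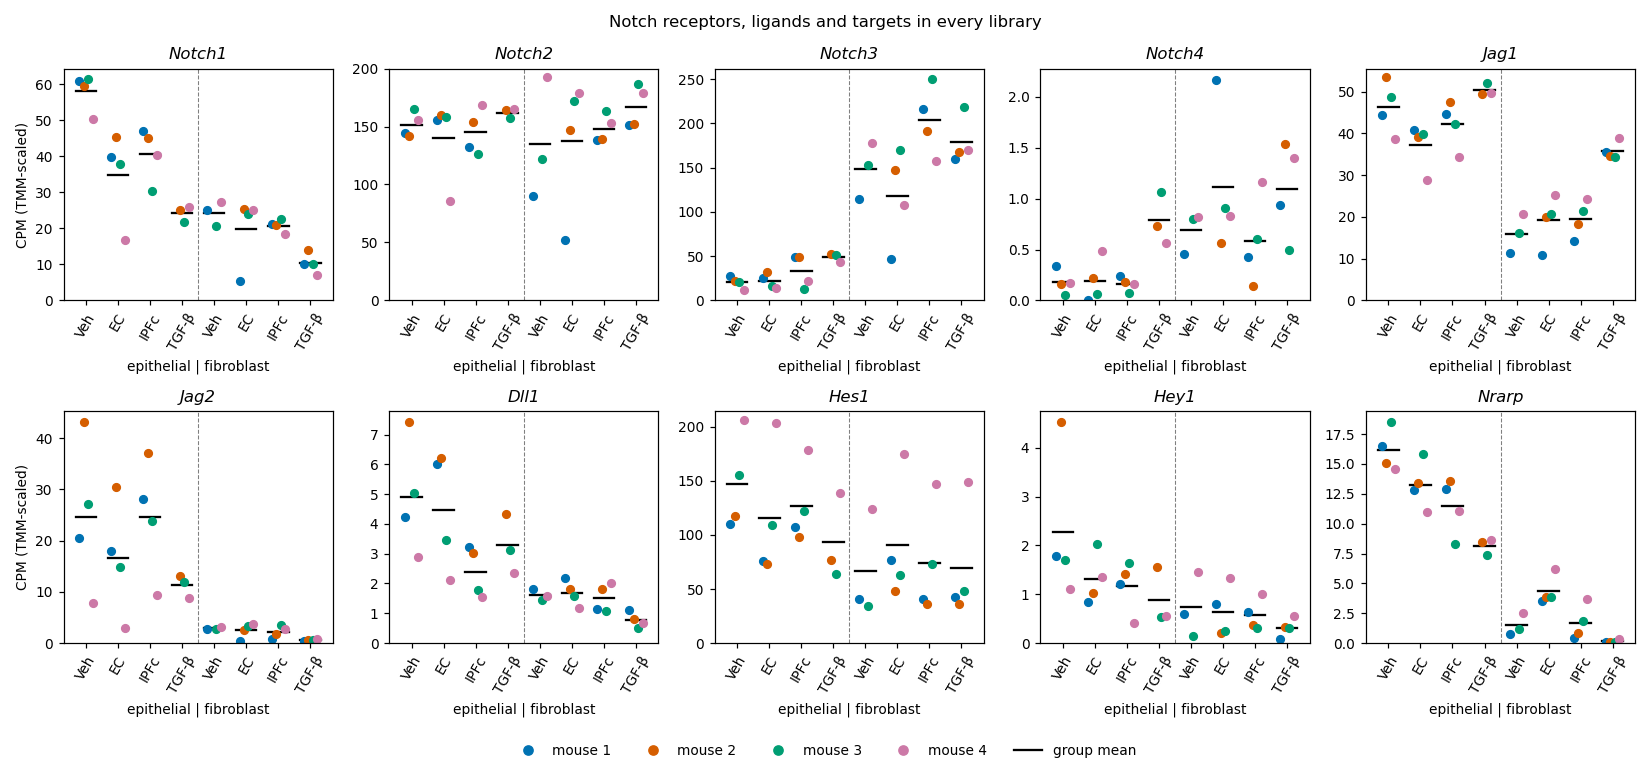
CPM of each member in every library of the 8 groups, on linear axes that start at 0. Points are libraries coloured by mouse and lines are group means. The epithelial group means of Notch1 and Nrarp are lowest under TGF-β, fibroblast Jag1 is highest there, and Hes1 of mouse 4 stands above that of the other mice in every group.

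Among the ligands, Jag1 (ENSMUSG00000027276, chr2:136923373-136958693, minus strand), a Jagged ligand, passed the test against vehicle in fibroblast TGF-β libraries and in no other group. Fibroblast libraries held 11.3, 16.1 and 20.6 CPM in vehicle (mice 1, 3 and 4). In EC they held 10.9, 19.9, 20.7 and 25.2 CPM, and in IPFc 14.2, 18.2, 21.3 and 24.4. Under TGF-β they held 35.5, 34.5, 34.4 and 38.9 CPM, and none of the other 11 fibroblast libraries reached that range. Jag1 rose 2.43-fold under TGF-β (log2 1.28 ± 0.17, adjusted p = 2.31e-05), in 3 of 3 mouse pairs. The epithelial share times the epithelial level came to 0.531 to 1.87 CPM in these libraries, and to 6.74 to 10.1 in vehicle, where epithelial RNA was more abundant. In EC libraries the product was 15 to 19.1 CPM beside 10.9 to 25.2 measured. After subtraction the Jag1 value was 2.12 ± 0.75 (adjusted p = 0.202), in a fit that called 696 genes in place of 3457.

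Epithelial libraries held 44.5, 53.4, 48.8 and 38.7 CPM of Jag1 in vehicle, 40.9, 39.2, 39.8 and 28.8 in EC, 44.6, 47.5, 42.2 and 34.4 in IPFc, and 49.5, 52.1 and 49.6 under TGF-β. The values against vehicle were -0.32 ± 0.10 for EC (adjusted p = 0.0989), -0.15 ± 0.10 for IPFc (adjusted p = 0.626) and 0.19 ± 0.11 for TGF-β (adjusted p = 0.183), and none passed. The Jag1 response to TGF-β differed between the fractions by -1 ± 0.37, with an interval of -1.78 to -0.22 and an adjusted p of 0.0892. This adjusted p was 0.0451 without mouse 4 and 0.04 without fibroblast EC of mouse 1.

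Jag2 (ENSMUSG00000002799, chr12:112871421-112893437, minus strand), the second Jagged ligand, is known from airway basal cells. In epithelial vehicle libraries it varied from mouse to mouse, with 20.4, 43.1, 27.2 and 7.78 CPM. Values were 18.0, 30.5, 14.8 and 2.91 in EC, 28.1, 37.1, 23.8 and 9.44 in IPFc, and 13, 12.0 and 8.78 under TGF-β. Mouse 4 was the lowest in each group. The 4 basal cell markers summed to 16.1 to 904 CPM in vehicle and to 2.93 to 70.7 under TGF-β, and 3 of the 4 exceeded 1 CPM there. The part of the basal markers in the result was not tested. Jag2 fell 1.83-fold under TGF-β in epithelial libraries (log2 -0.88 ± 0.28, adjusted p = 0.0144), although the groups overlapped and only 2 of 3 pairs were lower. Without mouse 2 the value was -0.44 (adjusted p = 0.281), and without mouse 3 it was -0.75 (adjusted p = 0.137). The call was also lost with DESeq2 (-0.71, adjusted p = 0.16), after subtraction and without the mouse as a block, and DESeq2 did not call Jag2 between IPFc and TGF-β either (0.74, adjusted p = 0.145). In EC it was -0.62 ± 0.23 (adjusted p = 0.18), lower in 4 of 4 pairs.

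Fibroblast libraries held little Jag2, with 2.71, 2.78 and 3.22 CPM in vehicle, 0.395, 2.53, 3.34 and 3.76 in EC, 0.846, 1.80, 3.49 and 2.70 in IPFc, and 0.313, 0.602, 0.622 and 0.728 under TGF-β. The fall under TGF-β was 5.19-fold (log2 -2.37 ± 0.43, adjusted p = 0.000584), with groups apart. The summed reads were 35 and 125. The epithelial share times the epithelial level reached or exceeded the measured Jag2 in 9 of 15 fibroblast libraries, among them 2 of 3 in vehicle and 0 of 4 under TGF-β. In fibroblast EC of mouse 1 the product was 8.41 CPM beside 0.395 measured, and in EC of mouse 2 it was 12.7 beside 2.53. For Jag2 the subtraction thus took away more than was measured in such libraries. After subtraction the value turned to 2.24 ± 1.6 (adjusted p = 0.725), which cannot be read as a rise.

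Dll1 (ENSMUSG00000014773, chr17:15587276-15597134, minus strand), a Delta-like ligand, was the 1 member called in epithelial libraries under IPFc, where 4.1% of 18024 genes were called. It stood at 4.24, 7.44, 5.04 and 2.88 CPM in vehicle and at 3.23, 3.02, 1.78 and 1.55 CPM in IPFc. Each mouse was lower in IPFc, and the groups overlapped because mice 1 and 2 in IPFc exceeded mouse 4 in vehicle. The fall was 2.08-fold (log2 -1.06 ± 0.24, adjusted p = 0.011). Without mouse 2 the adjusted p was 0.153, and without mouse 3 it was 0.119, at -0.95 and -0.90. Ciliated cell markers summed to 37.4 to 49.0 CPM in IPFc and 42.6 to 68.1 in vehicle, and neuroendocrine markers to 4.36 to 6.34 and 5.1 to 6.63. Their part in the result was not tested.

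In the other epithelial groups Dll1 stood at 6.02, 6.2, 3.47 and 2.13 CPM in EC and at 4.35, 3.14 and 2.36 under TGF-β, with values of -0.17 ± 0.22 (adjusted p = 0.815) and -0.44 ± 0.26 (adjusted p = 0.184). In fibroblast libraries it had 1.46 to 1.81 CPM in vehicle and 0.498 to 1.10 under TGF-β. These 2 groups were apart, and the value of -1.09 ± 0.39 missed the threshold (adjusted p = 0.0622). In EC the fibroblast libraries held 1.16 to 2.17 CPM of Dll1 and the epithelial share times the epithelial level was 1.23 to 2.81, at or above the measured level in 3 of 4 libraries.

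Of the targets, Hes1 (ENSMUSG00000022528, chr16:29882134-29886643, plus strand) encodes a transcriptional repressor that other signals also induce. In epithelial libraries it stood at 110, 118, 156 and 206 CPM in vehicle, 75.8, 72.7, 109 and 204 in EC, 107, 98.4, 122 and 179 in IPFc, and 77.0, 64.2 and 139 under TGF-β. All treated groups overlapped with vehicle, mouse 4 was the highest in each group, and each treated library was below the vehicle library of its mouse. The fall passed the test under TGF-β, with 1.69-fold (log2 -0.75 ± 0.14, adjusted p = 0.000181). It did not pass under EC (-0.43 ± 0.12, adjusted p = 0.0556) or IPFc (-0.23 ± 0.12, adjusted p = 0.464). Without epithelial EC of mouse 4 the EC value was -0.55 ± 0.12 (adjusted p = 0.00624). The TGF-β call for Hes1 remained after subtraction (-0.68, adjusted p = 0.00662) and was lost only in the fit without the mouse as a block (-0.62, adjusted p = 0.162).

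In fibroblast libraries Hes1 stood at 41.0, 34.4 and 124 CPM in vehicle (mice 1, 3 and 4). EC libraries held 77.2, 48.3, 63.2 and 175 CPM, IPFc libraries 40.7, 36.4, 73.2 and 147, and TGF-β libraries 42.9, 36.1, 48.4 and 149. Mouse 4 ranged from 124 to 175 CPM and the other mice from 34.4 to 77.2. Hes1 rose under EC 1.70-fold (log2 0.76 ± 0.18, adjusted p = 0.0153), higher in 3 of 3 pairs. The call was lost without mouse 3 (0.71, adjusted p = 0.0809) and without mouse 4 (0.88, adjusted p = 0.103), with the suffix of the sample titles as a term (0.62, adjusted p = 0.12), and after subtraction (1.01, adjusted p = 0.464). The share times the epithelial Hes1 level was 30.4 to 117 CPM in EC and 16.6 to 53.6 in vehicle, below the measured level in every library. The mean of this product was 31.2 CPM in vehicle and 56 in EC, beside measured means of 66.3 and 91.0 CPM. Under TGF-β the fibroblast Hes1 value was 0.36 ± 0.18 (adjusted p = 0.189), and it passed without fibroblast EC of mouse 1 in the model (0.37, adjusted p = 0.0441) and without mouse 1 (0.44, adjusted p = 0.0457). The response to EC differed between the fractions by -1.05 ± 0.36 (unadjusted p = 0.0102, adjusted p = 0.444).

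Nrarp (ENSMUSG00000078202, chr2:25070770-25073351, plus strand) encodes a small ankyrin repeat protein that binds the Notch intracellular part and dampens its signal. Epithelial libraries held 16.5, 15.1, 18.5 and 14.6 CPM in vehicle and 12.8, 13.4, 15.8 and 11 in EC. In IPFc they held 12.9, 13.6, 8.29 and 11.1 CPM, and under TGF-β 8.45, 7.35 and 8.67. Vehicle lay above all IPFc and TGF-β libraries, and the treated library was the lower one in every mouse pair. Nrarp fell 1.91-fold under TGF-β (log2 -0.94 ± 0.19, adjusted p = 0.000368). The values of -0.28 ± 0.16 for EC (adjusted p = 0.454) and -0.51 ± 0.16 for IPFc (adjusted p = 0.0881) did not pass, although the latter passed with only the groups compared (-0.53, adjusted p = 0.0349) and with no filter (-0.51, 0.0285). After subtraction the TGF-β value was -0.56 ± 0.21 (adjusted p = 0.0669).

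In fibroblast libraries Nrarp stood at 0.753, 1.17 and 2.52 CPM in vehicle, 3.55, 3.87, 3.83 and 6.24 in EC, 0.423, 0.863, 1.81 and 3.70 in IPFc, and 0.0782, 0.0669, 0.0622 and 0.364 under TGF-β. EC lay above vehicle in all libraries and TGF-β below. Nrarp rose 3.47-fold under EC (log2 1.80 ± 0.39, adjusted p = 0.0109). It fell under TGF-β by a fitted 8.73-fold (log2 -3.13 ± 0.53, adjusted p = 0.000319), from 66 reads in 3 libraries to 9 in 4. The ratio of the summed reads was 10.3, with a 95% counting interval of 5.12 to 23.6. The order of the groups was that of the epithelial RNA share, and the share times the epithelial level reached or exceeded the measured Nrarp in 12 of 15 fibroblast libraries. This product was 2.5 to 3.81 CPM in vehicle, 5.59 to 6.30 in EC, 1.46 to 3.34 in IPFc and 0.0749 to 0.326 under TGF-β. After subtraction Nrarp fell under the mean of 1 read and was not tested. The EC call was also lost without mouse 3 (1.86, adjusted p = 0.107) and without mouse 4 (2.00, adjusted p = 0.101), and with the title suffix as a term (1.77, adjusted p = 0.071).

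**Figure D3:**
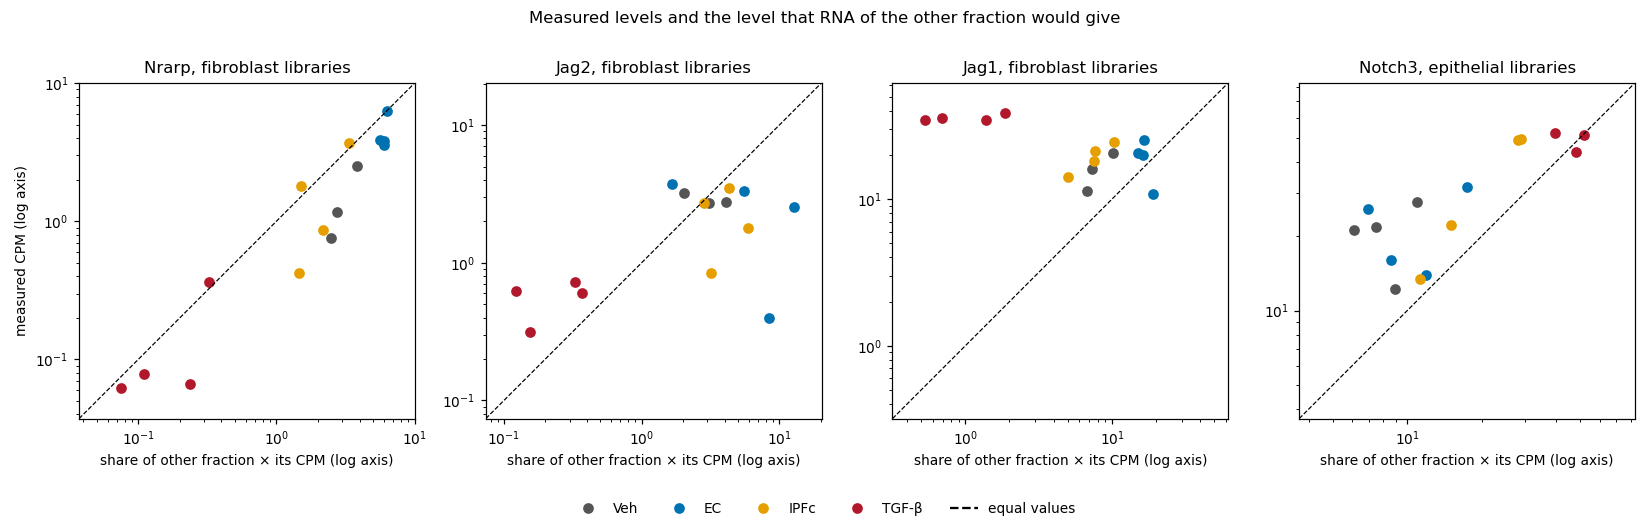
Measured CPM against the share of the other fraction's RNA times that fraction's CPM, on log axes, for 3 members in fibroblast libraries and for Notch3 in epithelial libraries, with a point for each library and a dashed line where both are equal. Nrarp lies on or below the line in 12 of 15 libraries, Jag1 under TGF-β lies far above it, and Notch3 under TGF-β lies near it.

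Hey1 (ENSMUSG00000040289, chr3:8726956-8732385, minus strand) encodes another transcriptional repressor of this pathway and had few reads. Epithelial libraries held 1.78, 4.53, 1.70 and 1.10 CPM in vehicle, 0.851, 1.03, 2.03 and 1.36 in EC, 1.21, 1.42, 1.64 and 0.407 in IPFc, and 1.56, 0.536 and 0.563 under TGF-β. All pairs were lower under TGF-β, and the groups overlapped. The fitted fall was 2.51-fold (log2 -1.33 ± 0.50, adjusted p = 0.0374), from 128 reads to 44. The call was lost without mouse 1 (-1.33, adjusted p = 0.0558), without mouse 2 (-1.51, 0.0825) and without mouse 3 (-1.16, 0.146). It was also lost with the title suffix as a term, without the mouse as a block and after subtraction. In fibroblast libraries Hey1 had 1 to 24 reads and overlapping groups, with no call. The epithelial share times the epithelial level reached the measured Hey1 in 2 of 4 EC libraries (0.397 to 0.781 CPM) and 1 of 3 vehicle libraries (0.254 to 0.286 CPM).

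By treatment, 7 of 10 members were called in epithelial libraries under TGF-β, 5 lower (Notch1, Jag2, Hes1, Hey1 and Nrarp) and 2 higher (Notch3 and Notch4), where 41.1% of all genes were called. The median log2 value of the members was -0.60, and that of all genes was 0.03. After subtraction of the fibroblast share, Notch1 and Hes1 were called, beside 4847 of 17639 genes. In fibroblast libraries 4 of 10 were called under TGF-β, Notch1, Jag2 and Nrarp lower and Jag1 higher, where 19.2% of all genes were called and the medians were -0.20 and -0.02. Under EC the fibroblast count was 2 of 10 (Hes1 and Nrarp), where 7.11% of all genes were called. Under IPFc it was 0 of 10 by edgeR, with 1 at an unadjusted p under 0.05 (Hes1) and 0.449% of all genes called. DESeq2 also called 0 members there, beside 180 of 18048 genes.

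**Figure D4:**
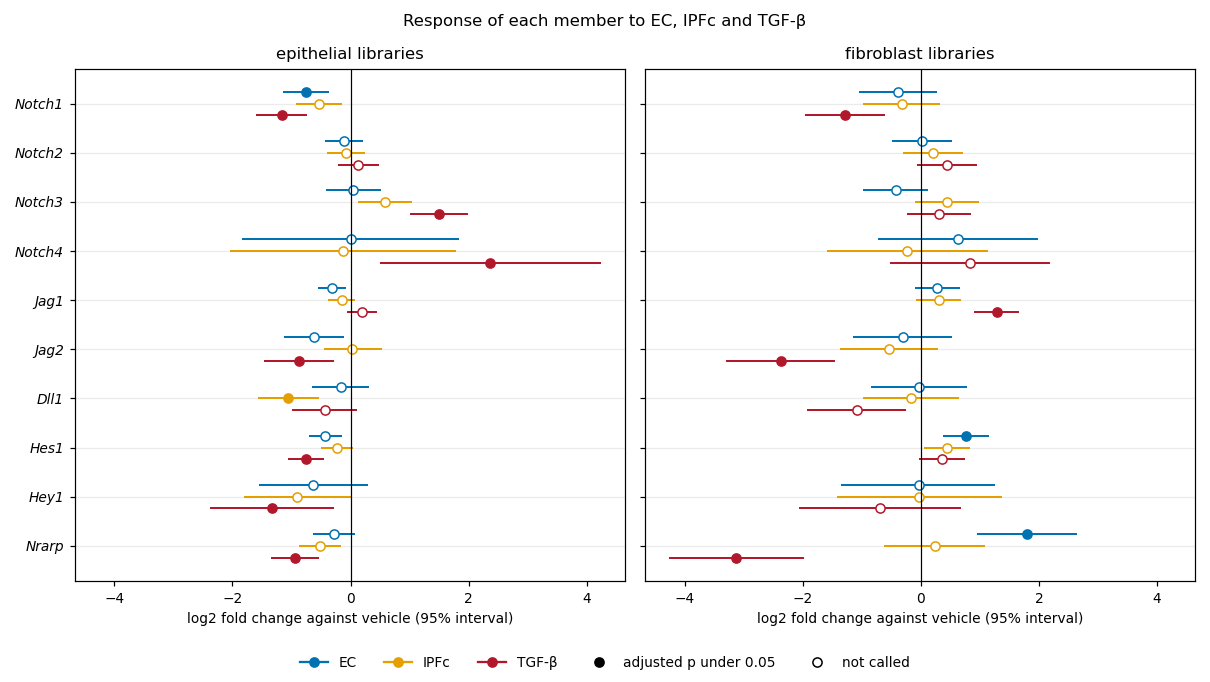
Log2 fold change of each member against vehicle in epithelial libraries (left) and fibroblast libraries (right), with 95% intervals, for EC, IPFc and TGF-β. Filled points passed the test. Most filled points belong to TGF-β. Notch4, Hey1 and fibroblast Nrarp and Jag2 have wide intervals.

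IPFc itself contains TGF-β, and the 2 exposures were compared directly. In epithelial libraries 6 of 10 members differed, where 37.2% of all genes did. Notch1 was higher in IPFc than under TGF-β by 0.63 ± 0.20 (adjusted p = 0.0171), Jag2 by 0.91 ± 0.28 (0.0134) and Hes1 by 0.53 ± 0.14 (0.00541). Notch3 was lower by -0.91 ± 0.23 (0.00328), Notch4 by -2.49 ± 0.88 (0.0309) and Jag1 by -0.34 ± 0.11 (0.0206). After subtraction the Notch3 value turned to 1.65 ± 0.87 (adjusted p = 0.185), and without the mouse as a block it was -0.61 (0.21). In fibroblast libraries 4 of 10 differed, where 17.4% of all genes did. Nrarp was higher in IPFc by 3.35 ± 0.50 (adjusted p = 8.04e-05), Jag2 by 1.83 ± 0.40 (0.00326) and Notch1 by 0.97 ± 0.29 (0.0257), and Jag1 was lower by -0.98 ± 0.15 (0.000107). Epithelial RNA made up an estimated 18.9% of the fibroblast IPFc libraries and 2.24% of the TGF-β libraries. The share times the epithelial level was at or above the measured Jag2 in 4 of 4 IPFc libraries and the measured Nrarp in 2 of 4. Where the product exceeds the measured level, the subtraction takes away more than was measured, and a turned direction cannot be read as a response. After subtraction the Jag2 value turned to -6.61 ± 2.19 (adjusted p = 0.232), Jag1 had -1.42 ± 0.65 (0.416) and Notch1 0.65 ± 0.84 (adjusted p = 1), and Nrarp was not tested. In epithelial libraries Notch1 and Jag2 were not called without mouse 2, Jag1, Jag2 and Hes1 not without mouse 3, and Jag1 not without mouse 4, while Notch4 was called in none of these. In fibroblast libraries Notch1 was not called without mouse 3 (0.93, adjusted p = 0.16) or mouse 4 (0.89, 0.146), and Jag2 not without mouse 3 (1.59, 0.0665).

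Whether a member responded differently in the 2 fractions was tested in one model of all 30 libraries. For EC, 0 of 10 members passed (2 at an unadjusted p under 0.05, Hes1 and Nrarp), where 0.0163% of all genes did. For IPFc, 0 of 10 passed, none of them at an unadjusted p under 0.05, where 0.0218% of all genes did. For TGF-β, 0 of 10 passed (3 at an unadjusted p under 0.05, Jag1, Hes1 and Nrarp), where 13.4% did, and the median over all genes was 0.21. The Nrarp difference was -1.94 ± 0.65 for EC (adjusted p = 0.429) and 2.04 ± 0.91 for TGF-β (adjusted p = 0.166). With DESeq2 the 3 counts were 0, 0 and 0, beside 64, 9 and 3050 of 18364 genes.

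Of 45 other genes of the pathway, 39 passed the filter in the epithelial model and 37 in the fibroblast model. The list holds other ligands, enzymes that glycosylate or ubiquitinate ligands and receptors, the proteases, the nuclear complex and further Hes and Hey genes. Under TGF-β 25 of 39 were called in epithelial libraries, 17 higher and 8 lower, against 41.1% of all genes, with a median log2 value of 0.04. Dlk2, a non-canonical Delta-like gene, fell from 22.4 CPM ± 4.26 (n = 4) to 1.99 ± 0.519 (n = 3), a log2 value of -3.42 ± 0.21 (adjusted p = 6.73e-11). Hes6, a Hes family gene known to oppose Hes1, fell by 0.99 (adjusted p = 3.87e-07). Rfng, a Fringe glycosyltransferase that modifies Notch receptors, fell by 1.01 (adjusted p = 1.03e-05), and Dtx3, a Deltex ubiquitin ligase, rose by 1.08 (adjusted p = 1.42e-06). Dtx3 had a mean of 162 CPM in fibroblast TGF-β libraries and 64.1 CPM in the epithelial ones, which held an estimated 25.2% of fibroblast RNA against 5.89% in vehicle. The part of this share in the changes of the other pathway genes was not tested. By role, 6 of the 9 tested ubiquitination genes were higher and 2 lower, 2 of 3 proteases were higher, and of 7 γ-secretase genes 2 were higher and 2 lower.

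In fibroblast libraries 8 of 37 of these genes were called under TGF-β, 3 higher and 5 lower, where 19.2% of all genes were. Fbxw7, a ubiquitin ligase subunit that targets the Notch intracellular part, rose from 18.5 CPM ± 1.25 (n = 3) to 40.0 ± 1.51 (n = 4), by 1.17 ± 0.13 (adjusted p = 4.11e-06). Furin, which cleaves the receptors on their way to the surface, rose by 0.81 ± 0.16 (adjusted p = 0.00115). Neurl1b, a ubiquitin ligase of ligands, fell by 1.06 (adjusted p = 0.00155) and Adam17, a protease that can shed Notch, fell by 0.54 (adjusted p = 0.00345). In the response to TGF-β the fractions differed for 5 of 39 of these genes (Dlk2, Rfng, Dtx3, Adam10 and Hes6), beside 13.4% of all genes. The response of Adam10, the protease that makes the ligand-dependent cut, differed between the fractions by 1.16 ± 0.27 (adjusted p = 0.00798). It stood at 147 CPM ± 20.5 in epithelial vehicle and 228 ± 14.3 under TGF-β, and at 246 ± 39.2 and 172 ± 28.2 in fibroblast libraries.

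Under EC and IPFc few of these genes moved. In epithelial libraries EC lowered Dlk2 (log2 -0.55 ± 0.15, adjusted p = 0.0314) as 1 of 39, where 4.41% of all genes were called. IPFc lowered Neurl1b (-0.87 ± 0.16, adjusted p = 0.00273) and Dtx4, another Deltex gene (-0.36 ± 0.09, adjusted p = 0.0237), as 2 of 39, where 4.1% of all genes were. In fibroblast libraries EC lowered Dtx3 (-0.47 ± 0.12, adjusted p = 0.0253) and Mib2, a ubiquitin ligase of ligands (-0.63 ± 0.18, adjusted p = 0.0477), as 2 of 37 beside 7.11% of all genes. Under IPFc 0 of 37 were called by edgeR, with 0 at an unadjusted p under 0.05, beside 0.449% of all genes. Between IPFc and TGF-β, 17 of 39 differed in epithelial libraries, 4 higher and 13 lower in IPFc, beside 37.2% of all genes, with Dlk2 at 3.12 ± 0.21 and Hes6 at 1.3 ± 0.11, and 8 of 37 in fibroblast libraries, beside 17.4% of all genes, with Fbxw7 at -1.15 ± 0.12. Between the fractions in vehicle, 15 of 39 differed, 4 higher and 11 lower in epithelial libraries, beside 47.1% of all genes, and those with the smallest adjusted p were Dtx3 (-2.34 ± 0.18), Neurl1a (-2.76 ± 0.37), Numbl (-1.63 ± 0.22) and Mib2 (-1.41 ± 0.23).

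In the order of the 8 group means, few neighbours were apart. For Notch1 only the first group, epithelial vehicle with 58.0 CPM ± 5.24, was apart from the next, epithelial IPFc. For Jag1 the 5 highest groups, the epithelial ones and fibroblast TGF-β, were apart from the other 3. For Nrarp the 4 epithelial groups were apart from the 4 fibroblast groups, and fibroblast TGF-β was apart from the rest. For Jag2 epithelial TGF-β was apart from fibroblast vehicle and fibroblast IPFc from fibroblast TGF-β, while epithelial EC of mouse 4 and fibroblast EC of mouse 1 reached into the range of lower groups. For Notch2, Notch3, Notch4, Dll1, Hes1 and Hey1 none of the 7 neighbouring pairs was apart.

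The genes whose pattern over the 15 libraries of a fraction was most like that of a member, after the mouse means were removed, are given as a description, since the libraries share treatments and cultures. Notch1 was most like Nbeal2, Rxra and Plxna2 (Pearson r = 0.96 each) in epithelial libraries. Notch2 was most like Numa1 (0.98), Ep300 (0.97) and Fat1 (0.96), Jag1 like Amotl2 (0.95), Kank1 (0.94) and B3gntl1 (0.92), Jag2 like Fat2 (0.95), Ankrd33b (0.89) and Clec16a (0.87), and Dll1 like Foxj1 (0.93), Cables1 (0.88) and Gsdme (0.81). Foxj1 is the master regulator of ciliated cells, and no other listed ciliated marker was among the 3 genes most like Dll1. Between epithelial IPFc and vehicle libraries the ranges of all 6 ciliated markers overlapped. They were 7.25 to 16.7 and 11.8 to 33.8 CPM for Foxj1, and 0.895 to 2.75 and 1.9 to 5.18 for Ccdc39. They were 15.9 to 27.1 and 13.4 to 27.2 for Tppp3, and 0.488 to 1.3 and 0.338 to 1.29 for Tekt1. For Dnah5 they were 0.651 to 1.94 and 0.592 to 2.87, and for Cfap126 1.42 to 1.95 and 1.35 to 2.32. Hes1 was most like Zbtb16 (0.94), Arhgef16 (0.92) and Krt13 (0.92), Nrarp like Tsc22d4, Arf6 and Grasp (0.96 each), and Hey1 like H1f0 (0.90), Bmyc (0.89) and Tbcc (0.86). In fibroblast libraries Notch3 was most like Gm46620 (0.98), Med13l (0.97) and Abca2 (0.97), and Notch4, with few reads, like Tmem251 (0.82), Stx6 (0.81) and Zc3h10 (0.79).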

How the data were processed

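The authors isolated RNA of both fractions, prepared libraries with a strand-specific kit, trimmed reads with Trimmomatic 0.30 and deposited, for each of 30 libraries, raw whole-number counts of reads per Ensembl gene, not normalized. The submitters' processing notes name GRCm39 and DESeq2 1.34.0, and the study's methods name GRCm38. The aligner, the counter and its strand setting are not given in the sources used here. The coordinates printed are from GENCODE vM39 on GRCm39.

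From the deposited counts, genes with a mean of at least 1 read were tested with edgeR 4.0.16 in R 4.3.3 (TMM, quasi-likelihood, two-sided, adjusted p under 0.05) in 3 models. Each fraction had a model of its 15 libraries with treatment and mouse (8 residual degrees of freedom), and both fractions had a model of 30 libraries with the culture as a block and a fraction effect per treatment (10 residual degrees of freedom). In all 12 comparisons were made. Same-numbered libraries come from one mouse by the labels, and their deviations from group means correlated by 0.35 on average in each fraction (-0.26 to 0.73 in fibroblast and 0.02 to 0.73 in epithelial libraries), against -0.11 between mice. Pairs of libraries within a group had chi-square values divided by degrees of freedom between 5.76 and 83.2, more than sampling noise gives. Depth was 5113828 to 20317181 reads. No molecular identifiers are described, so intervals and limits from counts cover counting error only.

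The share of the other fraction's RNA was the median ratio of CPM to the partner library over 7 to 10 markers, each above a level of 50 CPM in that partner library (the mean of the group where a partner was missing). For the subtraction, this share of the partner's CPM was removed from each gene's counts. Where that was more than the gene's counts, all of its counts were removed. Exon lengths were unions of annotated exons. The named genes were all members, up to 4 other pathway genes per comparison by adjusted p (Adam10 and the genes given by level were among them) and the 3 most similar genes of each member. Members, lists and tests were chosen with earlier results of these data known. Alternatives were DESeq2 1.42.0, its size factors, other filters, no block, only the groups compared, a suffix of the sample titles as a term, subtraction, raw library totals, and each mouse or 2 single libraries left out. Those 2 single libraries were chosen after seeing the data. The title suffix, whose meaning is not given, differed between treated and vehicle libraries of mouse 3 in every comparison with vehicle except epithelial EC. It also differed between the fractions in every vehicle culture with both libraries.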

Additional observations from a re-analysis of the deposited data

Results flagged for a closer look

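Over 60 sets of 4 libraries (each member in each group with 4), 7 had 1 library far from the other 3, measured by its gap to the nearest divided by the range of the group. Chance alone gives about 1 in 20. Fibroblast EC of mouse 1, the shallowest library, stood at 5.33 CPM of Notch1 against 24.1 to 25.3 in the others. Epithelial EC of mouse 4 stood at 86.0 CPM of Notch2 against 156 to 160, and at 28.8 CPM of Jag1 against 39.2 to 40.9. Fibroblast TGF-β of mouse 3 stood at 219 CPM of Notch3 against 160 to 170. Mouse 4 stood apart in 3 sets of fibroblast EC and TGF-β libraries, with 149 CPM of Hes1 under TGF-β against 36.1 to 48.4, 6.24 CPM of Nrarp in EC against 3.55 to 3.87, and 0.364 CPM of Nrarp under TGF-β against 0.0622 to 0.0782.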

How the results depend on the processing

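Of 32 called member results, 2 kept their direction and call in all alternatives, Notch1 under TGF-β in epithelial libraries and Nrarp between the fractions in vehicle. Subtraction of the other fraction's share turned 4 directions, Notch3 under TGF-β in epithelial libraries (-1.74) and in IPFc against TGF-β (1.65), and Jag2 under TGF-β in fibroblast libraries (2.24) and in IPFc against TGF-β (-6.61). For Notch3 and Jag2 the share times the partner's level exceeded the measured level in some of these libraries. The turned directions therefore cannot be read as responses. Subtraction also called fewer genes in all. The members called with subtraction were 0 for epithelial EC, 0 for epithelial IPFc, 2 for epithelial TGF-β, 0 for fibroblast EC, 0 for fibroblast TGF-β, 3 for epithelial IPFc against TGF-β, 0 for fibroblast IPFc against TGF-β and 2 between the fractions. In the same order, subtraction called 375, 189 and 4847 of 17639 genes, 42 and 696 of 17370, 4746 of 17639, 578 of 17370 and 4061 of 18247.

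Without the mouse as a replicate block the member counts were 0 for epithelial EC, 0 for epithelial IPFc, 4 for epithelial TGF-β, 0 for fibroblast EC, 2 for epithelial IPFc against TGF-β and 2 for the difference between fractions under TGF-β. In the same order, that setting called 391, 297 and 6636 of 18024 genes, 321 of 18048, 5791 of 18024 and 3952 of 18364. With no filter on low counts the member counts were 3 for epithelial EC, 4 for epithelial IPFc, and 2 and 5 for the differences between fractions under EC and TGF-β. In the same order, that setting called 1172 and 1118 of 26999 genes and 438 and 2861 of 29795. With the filter these were 794 and 739 of 18024 genes and 3 and 2463 of 18364. With only the groups compared the member counts were 3 for epithelial EC, 3 for epithelial IPFc and 2 for the difference under TGF-β. In the same order, 830 of 17789, 1065 of 17927 and 2961 of 18558 genes were called. With the title suffix as a term the member counts were 2 for epithelial EC, 0 for fibroblast EC and 3 for the difference under TGF-β. In the same order, 858 of 18024, 537 of 18048 and 3377 of 18364 genes were called. DESeq2 called 2 members in epithelial EC, beside 1000 of 18024 genes. The cause of these changes was not tested.

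With a mouse left out, the member counts ranged from 0 to 2 for epithelial EC, 0 to 2 for epithelial IPFc, 4 to 6 for epithelial TGF-β, 0 to 2 for fibroblast EC, 3 to 5 for fibroblast TGF-β, 2 to 6 for epithelial IPFc against TGF-β, 2 to 5 for fibroblast IPFc against TGF-β, 4 to 8 between the fractions and 0 to 1 for the difference under TGF-β. The counts over all genes, of 17798 to 18483 tested, follow in the same order. They were 421 to 727, 352 to 801, 5752 to 6941, 217 to 2053, 2148 to 4089, 4876 to 6228, 1985 to 3786, 5680 to 7992 and 971 to 2467. Without epithelial EC of mouse 4 the member counts were 2 for epithelial EC, 2 for epithelial IPFc and 7 for epithelial TGF-β. That setting called 851, 1095 and 8147 of 18120 genes. Without fibroblast EC of mouse 1 the member counts were 6 for fibroblast TGF-β (5005 of 18148 genes) and 1 for the difference under TGF-β (3139 of 18415 genes). On raw library totals 78 of 80 group means moved by less than 1 SD. Depth limits Notch4, Hey1 and fibroblast Nrarp, Jag2 and Dll1.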
